A study of Rattus norvegicus with 10 samples.

Results

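Galnt16, Csgalnact1 and B4galnt3 are the glycosyltransferase genes found in a table of lung transcripts from rats lacking Cmg2 and from wild-type rats. They were chosen by symbol: Galnt16 and Csgalnact1 by name, and any gene whose symbol begins with 1 of 18 prefixes of glycosyltransferase and glycan sulfotransferase families (Galnt, B3gnt, B3galt, B4galt, B4galnt, Gcnt, St3gal, St6gal, St8sia, Fut, Mgat, Chst, Hs3st, Hs6st, Ndst, Ext, Chsy and Has) followed by a digit. Of the 1319 genes in the table, 3 met this rule. The 5 Cmg2-KO libraries and the 5 WT libraries all came from lung of 8-week-old Sprague Dawley rats, with genotype as the labelled difference. The sources used here do not give how the Cmg2 allele was made, the sex of the animals, or whether each library came from its own animal, so the spread between libraries may be in part technical. Cmg2 encodes a cell-surface receptor, also called ANTXR2, that binds matrix proteins and anthrax toxin. The series text mentions a larger number of libraries for each genotype, and 5 of each were analysed here.

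The table holds the genes to which the authors gave an unadjusted p-value under 0.05 for Cmg2-KO against WT, so every member was selected on that contrast. Differences between the genotypes are therefore described here without a test. The authors' deposited table gave Galnt16 a p-value of 5.63e-13 and an adjusted p of 2.8e-09, Csgalnact1 a p-value of 0.00011 and an adjusted p of 0.0347, and B4galnt3 a p-value of 0.0212 and an adjusted p of 0.573. B4galnt3 lay nearest to the limit for entry, and genes outside it were not analysed here. The values are read counts per gene that the authors divided by a size factor for each library, called scaled counts below. Each library held 1386578 to 1531531 scaled counts over the 1319 genes, and its total depth is unknown. Cmg2 itself was not analysed here, and its transcript therefore gives no check of the genotype labels. Scgb1a1, which encodes the secretory protein of airway club cells, was abundant in every library, at 84205 to 175952 scaled counts in Cmg2-KO and 143906 to 195238 in WT.

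Glycosyltransferases of the Golgi build sugar chains on secreted and membrane proteins by moving 1 sugar at a time from a nucleotide donor. Polypeptide GalNAc-transferases, the Galnt family, start mucin-type O-glycans by placing N-acetylgalactosamine on serine or threonine. Csgalnact1 places N-acetylgalactosamine on the linkage sugars of a proteoglycan core and so commits the chain to chondroitin sulfate, a major glycan of the matrix around lung vessels and airways. B4galnt3 adds N-acetylgalactosamine to N-acetylglucosamine at the ends of N- and O-glycans. All 3 members thus transfer the same sugar, which the symbols and prefixes of the rule already select for in part.

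RefSeq (GRCr8) names 117 protein-coding rat genes that meet the rule, expressed in lung or not, and the 3 members are 2.56% of them. The 1319 genes of the table are 6.63% of the 19894 genes over which the authors adjusted their p-values. These shares have unlike denominators and their difference was not tested. Of the 18 Galnt genes the table held 1, and of the 4 B4galnt genes it also held 1. The families that sialylate, fucosylate, branch or sulfate glycan chains or make hyaluronan had 0 genes in the table. A gene missing from the table has no values here, which does not show that it was alike in both genotypes.

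RefSeq start-site sequences, from 250 bases before to 50 bases after the start, are given to show the promoter regions of Galnt16, the member with the largest difference, and B4galnt3, the member with the fewest reads. Matching entries were found for 2 of the 3 members, Csgalnact1 being the other. Capitals mark every CG dinucleotide, which reads the same on both strands. The Galnt16 sequence lies on the plus strand at chr6:105901450-105901749 and the B4galnt3 sequence on the minus strand at chr4:155181195-155181494, both in GRCr8.
Galnt16: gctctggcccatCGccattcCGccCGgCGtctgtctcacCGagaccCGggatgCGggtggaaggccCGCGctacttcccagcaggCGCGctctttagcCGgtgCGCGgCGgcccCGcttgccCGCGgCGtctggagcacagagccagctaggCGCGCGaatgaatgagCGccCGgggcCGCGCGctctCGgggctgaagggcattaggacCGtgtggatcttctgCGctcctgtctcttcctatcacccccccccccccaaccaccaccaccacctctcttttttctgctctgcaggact
B4galnt3: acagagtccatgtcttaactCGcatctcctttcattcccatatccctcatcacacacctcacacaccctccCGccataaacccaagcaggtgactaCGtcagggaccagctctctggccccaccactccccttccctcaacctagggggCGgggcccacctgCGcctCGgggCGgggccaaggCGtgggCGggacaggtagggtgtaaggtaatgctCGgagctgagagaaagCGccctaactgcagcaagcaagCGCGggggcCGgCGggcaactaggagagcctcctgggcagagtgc
The Galnt16 sequence holds 30 CG dinucleotides and is 68.0% G or C, and 89.7% of 33469 rat start-site sequences of the same length hold fewer CG. The B4galnt3 sequence holds 15 and is 63.0% G or C, and 68.0% of sequences hold fewer. The median sequence holds 7 CG and is 51.7% G or C. The letters TATAAA were found in neither sequence on either strand, against 14.2% of all sequences. Nothing in the data measures the use of these start sites.

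Galnt16 (ENSRNOG00000004589) stood about 4-fold higher in Cmg2-KO lung. It lies on chromosome 6 at 104068547 to 104250174 on the plus strand in the authors' coordinates, for which no build is given, and was formerly named Galntl1. Its scaled counts were 132, 141, 110, 150 and 164 in Cmg2-KO 1 to 5, against 46.7, 13.5, 21.1, 49.5 and 30.5 in WT 1 to 5. The genotypes did not overlap, and the lowest Cmg2-KO library stood 2.21 times as high as the highest WT library. Means were 139 ± 20.5 in Cmg2-KO and 32.3 ± 15.7 in WT (SD, n = 5 each), a ratio of 4.32. The log2 fold change on the log2(scaled count + 1) scale was 2.21 ± 0.33 (SE). Of the 1308 genes fitted, 39 (2.98%) had a larger log2 fold change in either direction. In the authors' deposited table only 3 genes had a smaller p-value.

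Relative to their level, the WT libraries varied more in Galnt16 than the Cmg2-KO libraries did. The highest library was 1.498 times the lowest in Cmg2-KO and 3.67 times the lowest in WT. On the log2 scale the SD was 0.22 in Cmg2-KO and 0.76 in WT, beside medians over all fitted genes of 0.24 in Cmg2-KO and 0.28 in WT. An SD above that of Galnt16 was found for 54.7% of fitted genes in Cmg2-KO and for 14.8% in WT, with genes of every level compared. The reads behind the values were 105 to 160 per Cmg2-KO library, against 13 to 46 in the 4 WT libraries counted in reads, WT 4 being left out. Counting error alone gives an SD of 11.5 scaled counts in Cmg2-KO and 5.78 in WT, against measured SDs of 20.5 and 15.7. For WT 2, the library with the fewest reads, the exact Poisson 95% interval around 13 reads runs from 6.92 to 22.2 and covers counting error only. The lowest Cmg2-KO library, Cmg2-KO 3, had 105 reads with an interval of 85.9 to 127.

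Csgalnact1 (ENSRNOG00000013024) stood lower in Cmg2-KO lung, by about a fold of 1.49. It lies on chromosome 16 at 22979444 to 23074798 on the plus strand in the authors' coordinates. Scaled counts were 315, 369, 338, 260 and 361 in Cmg2-KO 1 to 5, against 396, 445, 457, 505 and 652 in WT 1 to 5. Every Cmg2-KO library was below every WT library, but the gap was narrow: the lowest WT library, WT 1, stood 1.07 times as high as the highest Cmg2-KO library, Cmg2-KO 2. In reads, the exact Poisson 95% intervals of those libraries overlapped, at 381 to 462 for Cmg2-KO 2 and 352 to 431 for WT 1. Means were 329 ± 43.8 in Cmg2-KO and 491 ± 98.0 in WT (SD, n = 5 each), and the log2 fold change was -0.57 ± 0.14 (SE). WT 5 stood well above the other WT libraries, and without it the log2 fold change was -0.46 ± 0.12 (SE). Of the fitted genes, 39.8% had a larger change in either direction, so the size of the difference was ordinary for the table. The SD on the log2 scale was 0.20 in Cmg2-KO and 0.27 in WT, close to the medians over all fitted genes. In bulk lung, a change in the number of cells that express a gene and a change in its RNA per cell cannot be told apart. This holds for Csgalnact1, for Galnt16 above and for each gene below.

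B4galnt3 (ENSRNOG00000010344) was barely detected. It lies on chromosome 4 at 152737161 to 152835182 on the minus strand in the authors' coordinates. Scaled counts were 2.61, 0, 2.09, 4.73 and 1.04 in Cmg2-KO 1 to 5, against 7.11, 11.4, 13.3, 4.04 and 2.10 in WT 1 to 5. The genotypes overlapped, with WT 4 below Cmg2-KO 4 and WT 5 level with Cmg2-KO 3. These values rest on 0 to 5 reads per Cmg2-KO library and on 2 to 12 reads in the 4 WT libraries counted in reads. The 0 reads of Cmg2-KO 2 allow up to 3.69 reads by the exact Poisson 95% interval. Means were 2.09 ± 1.78 in Cmg2-KO and 7.60 ± 4.75 in WT (SD, n = 5 each), with a log2 fold change of -1.49 ± 0.56 (SE). The size of that value depends on the pseudocount, since a pseudocount of 5 gave -0.78.

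**Figure D1:**
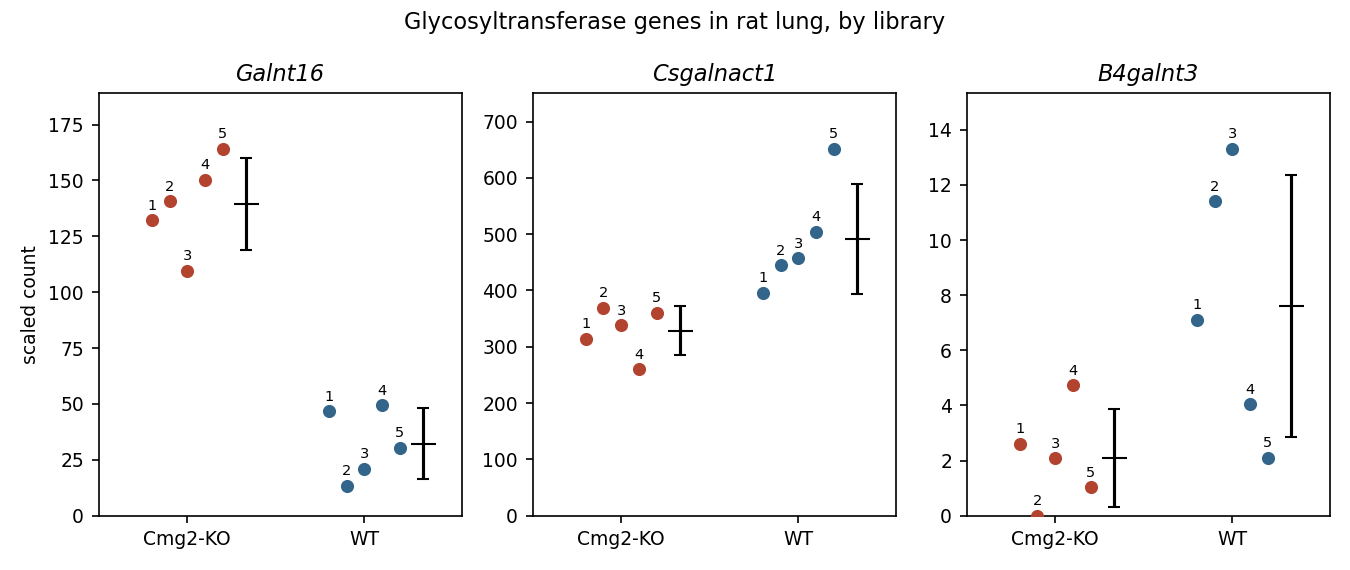
Scaled counts (vertical axis, linear from 0) of Galnt16, Csgalnact1 and B4galnt3 in each library, Cmg2-KO left and WT right, with the replicate number above each point; the horizontal mark and bar to the right of each group are its mean and SD (n = 5). Galnt16 lies at 110 to 164 in Cmg2-KO and 13.5 to 49.5 in WT, Csgalnact1 at 260 to 369 in Cmg2-KO and 396 to 652 in WT, and B4galnt3 overlaps between the genotypes.

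Read against the table as a whole, 2 of the 3 members had genotypes that did not overlap, 1 in each direction. Among the 1308 fitted genes this was true of 16.4%, made up of 9.33% higher and 7.11% lower in Cmg2-KO. By the adjusted p of the authors' deposited table the same 2 members passed 0.05, as did 5.46% of its genes (3.11% higher and 2.35% lower in Cmg2-KO). In limma, with adjustment over 19894 genes, 0 of the 3 members passed, against 0.229% of the fitted genes (3 genes, 1 higher and 2 lower, and between 1 and 6 genes with a library left out). An unadjusted limma p under 0.05 was given to all 3 members and to 1035 of the fitted genes. On whole reads of 9 libraries, edgeR's quasi-likelihood test with the same adjustment passed 0 members and 1 of the 1308 fitted genes. DESeq2 passed 1 member, Galnt16, and 49 of the 1308 fitted genes. Since the members were chosen on this contrast, these counts describe them and support nothing. Over all fitted genes the median log2 fold change was -0.15, with 631 genes higher and 677 lower in Cmg2-KO.

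**Figure D2:**
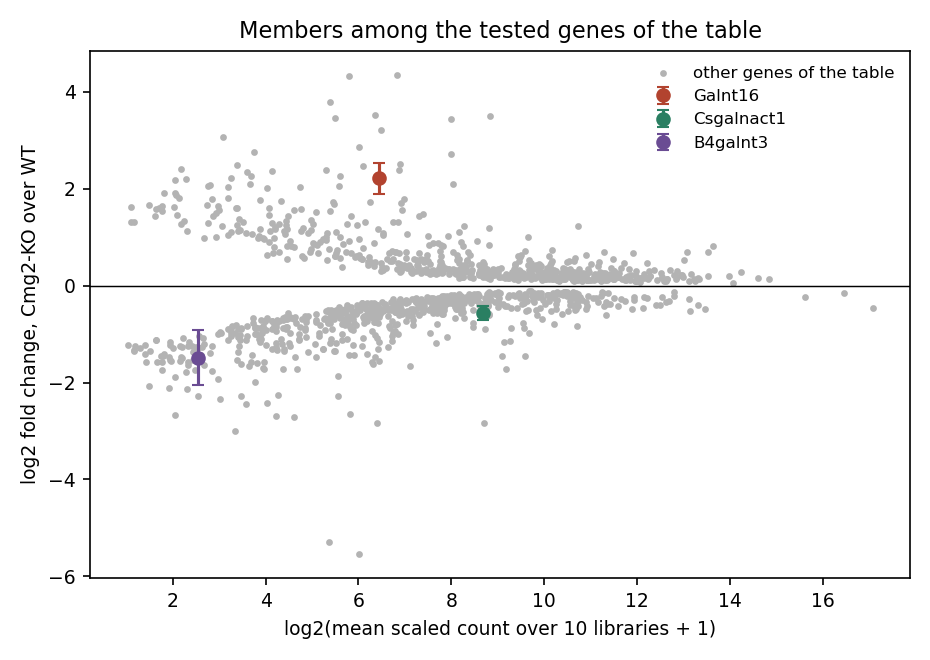
Log2 fold change of Cmg2-KO over WT (vertical axis) against the mean level over 10 libraries on the log2(scaled count + 1) scale (horizontal axis) for the 1308 fitted genes, with the 3 members in colour and bars for the SE. Galnt16 stands at 2.21, above most genes of like level, Csgalnact1 at -0.57 lies inside the cloud of lower genes, and B4galnt3 at -1.49 lies among the genes with the fewest reads.

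Per length, Csgalnact1 was the most abundant member in both genotypes. In scaled counts per kilobase of the gene length in the table, Csgalnact1 averaged 101 ± 13.4 in Cmg2-KO and 151 ± 30.1 in WT (SD, n = 5 each). Galnt16 averaged 36.0 ± 5.29 in Cmg2-KO and 8.34 ± 4.06 in WT on the same scale. B4galnt3 averaged 0.705 ± 0.600 in Cmg2-KO and 2.56 ± 1.60 in WT. The order of the levels was thus the same in both genotypes, but Galnt16 lay closer to Csgalnact1 in Cmg2-KO. The ratio of Csgalnact1 to Galnt16 per kilobase ran from 2.05 to 3.67 in Cmg2-KO libraries with a median of 2.83, and from 10.1 to 39.2 in WT libraries with a median of 25.4. Galnt16 and B4galnt3, neighbours at the low end, were well apart in every Cmg2-KO library. In WT 2 they came closest, at 3.48 for Galnt16 and 3.84 for B4galnt3, and there B4galnt3 was the higher of them.

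The rest of the glycan machinery was examined through 10 lists of 270 genes in all. The table held 12 of these, or 4.44%, including Galnt16 and Csgalnact1, beside 6.63% of all genes the authors adjusted over. Among the 10 that are not members, 4 were higher and 6 lower in Cmg2-KO, none passed limma's adjusted threshold (8 had an unadjusted p under 0.05, as did 1035 of the 1308 fitted genes), and none passed 0.05 by the adjusted p of the authors' deposited table. On whole reads of 9 libraries 0 of them passed in DESeq2 or in edgeR, beside 49 and 1 of the 1308 fitted genes. Lists for heparan sulfate synthesis (24 genes), N-glycan assembly and branching (43 genes), hyaluronan synthesis and turnover (17 genes) and mucins (18 genes) had 0 genes in the table. Galnt16 was the only gene of 32 on the mucin-type O-glycan list, and Csgalnact1 the only gene of 23 on the chondroitin and dermatan sulfate list.

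Genes that supply sialic acid and sulfate had log2 fold changes smaller in size than that of Csgalnact1, -0.57 ± 0.14 (SE). For Nanp this order is not clear, given the SEs. Nans, which makes phosphorylated sialic acid, averaged 1027 ± 52.3 scaled counts in Cmg2-KO and 947 ± 27.0 in WT (SD, n = 5 each). Nanp, the phosphatase that follows it, averaged 161 ± 23.9 in Cmg2-KO and 220 ± 33.7 in WT, a log2 fold change of -0.45 ± 0.14 (SE). These consecutive enzymes of sialic acid synthesis thus had mean differences of opposite sign, and the genotypes overlapped at both. Slc26a2, the sulfate transporter on which sulfation of chondroitin chains depends in cartilage, averaged 206 ± 23.5 in Cmg2-KO and 249 ± 14.1 in WT. Its values overlapped narrowly, with Cmg2-KO 1 at 233 and WT 4 at 232.

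Among the 10 glycan lists, the list of proteoglycan core proteins was the best represented. Only some of these cores carry chondroitin sulfate, the chain that Csgalnact1 starts. The table held 6 of the 32 genes on this list (18.8%), beside 6.63% of all genes the authors adjusted over. Of these 6 genes, 4 were lower and 2 higher in Cmg2-KO, beside 677 lower and 631 higher among the 1308 fitted genes. Their median log2 fold change was -0.40, beside -0.15 over all fitted genes. Versican (Vcan), a large chondroitin sulfate proteoglycan of the matrix, averaged 226 ± 31.2 in Cmg2-KO and 359 ± 158 in WT (SD, n = 5 each). Its wide WT spread came from WT 1 at 493 and WT 2 at 558, while WT 5 at 186 lay among the Cmg2-KO libraries, at 179 to 261. The small proteoglycan decorin (Dcn), which carries a single chondroitin or dermatan sulfate chain, averaged 1159 ± 293 in Cmg2-KO and 2196 ± 988 in WT. Serglycin (Srgn), the proteoglycan of blood cell granules, averaged 4311 ± 431 in Cmg2-KO and 5183 ± 1037 in WT. The chondroitin sulfate carriers in the table thus had lower means in Cmg2-KO, with overlapping genotypes at each. A lower mean was not particular to them, since the heparan sulfate core Gpc6 had a log2 fold change of -1.13.

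The other cores carry different chains and went both ways. Fibromodulin (Fmod), a keratan sulfate proteoglycan that binds collagen, averaged 2722 ± 628 in Cmg2-KO and 1905 ± 272 in WT (SD, n = 5 each). The glypicans are heparan sulfate proteoglycans anchored in the membrane. Gpc3 averaged 6384 ± 634 in Cmg2-KO and 5339 ± 401 in WT, and Gpc6 averaged 15.9 ± 6.16 in Cmg2-KO and 34.7 ± 11.3 in WT. The genotypes overlapped at all 3 genes.

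Of 23 genes for glycan breakdown, Fuca2, a secreted fucosidase, averaged 718 ± 23.5 in Cmg2-KO and 659 ± 34.3 in WT (SD, n = 5 each). Its genotypes overlapped, with Cmg2-KO 3 at 692 below WT 4 at 701. Glt8d1, a glycosyltransferase-like gene outside the lists that was chosen after its values were seen, averaged 624 ± 43.6 in Cmg2-KO and 559 ± 21.9 in WT. Its lowest Cmg2-KO library, at 581, was just above its highest WT library, at 577.

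**Figure D3:**
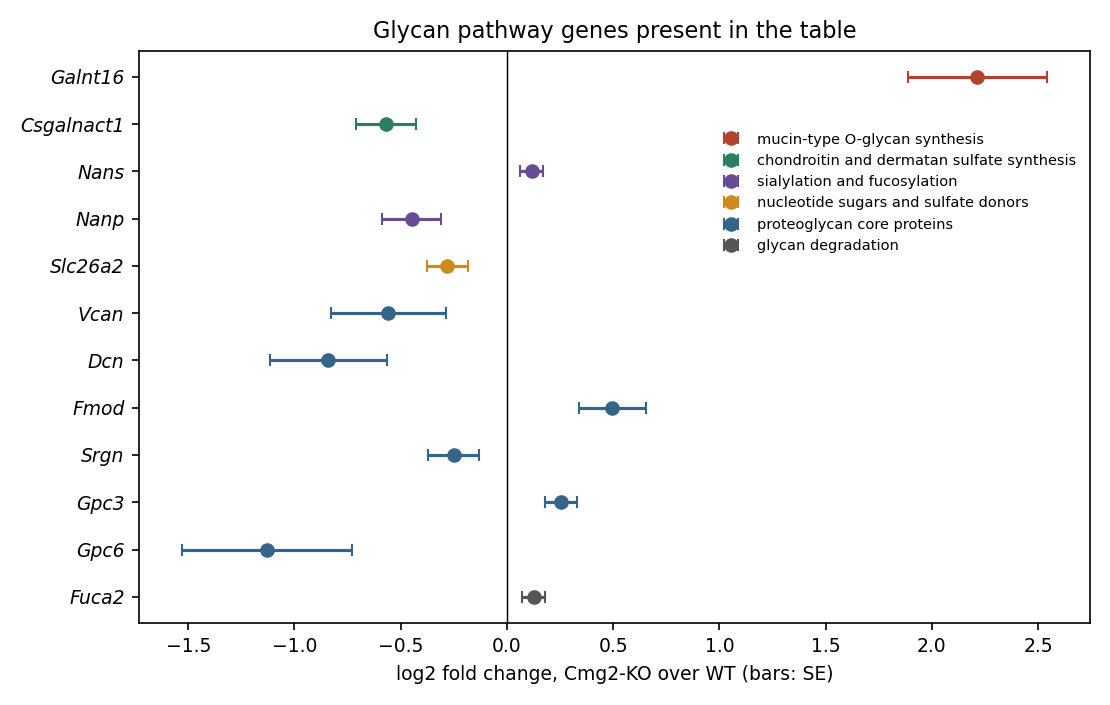
Log2 fold change of Cmg2-KO over WT (horizontal axis, bars for the SE) for the 12 genes of the 10 glycan lists described here, coloured by list. Galnt16 at 2.21 lies far to the right of the others, which run from -1.13 for Gpc6 to 0.50 for Fmod.

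Genes with the profiles most like those of Galnt16 and Csgalnact1 were found by the root mean square difference of their log2(scaled count + 1) values over the 10 libraries, each gene taken relative to its own WT mean, among 986 genes with a usable symbol. This measure includes the genotype difference and is a description. The closest to Galnt16 were Skint10 at 0.69, the C-type lectin gene Clec2dl1 at 0.77, and RF00026, a noncoding RNA family name, at 0.78, where the median gene was at 1.75. Skint10 averaged 5.64 ± 3.34 scaled counts in Cmg2-KO and 1.22 ± 1.67 in WT, and RF00026 averaged 4.47 ± 2.09 in Cmg2-KO and 0.609 ± 1.36 in WT (SD, n = 5 each), so both rest on few reads. Clec2dl1, at 79.6 ± 25.6 in Cmg2-KO and 16.0 ± 6.45 in WT, was the one of the 3 with a level near that of Galnt16. Even the nearest profile differed from that of Galnt16 by a root mean square of 0.69 log2 units. That measure includes scatter between libraries, and the log2 SD of Galnt16 in WT was 0.76. It therefore does not show that no gene had a like difference between genotypes. Clec2dl1 had a log2 fold change of 2.26 ± 0.31 (SE).

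For Csgalnact1 the root mean square differences were smaller, at the nearest genes and at the median gene alike. The nearest were Pdgfd, a platelet-derived growth factor ligand, at 0.17, the riboflavin transporter gene Slc52a3 at 0.19, and Rgs5, a regulator of G-protein signalling that marks pericytes, at 0.20, where the median gene was at 0.58. Pdgfd averaged 245 ± 48.3 in Cmg2-KO and 322 ± 55.5 in WT (SD, n = 5 each). Slc52a3 averaged 140 ± 9.35 in Cmg2-KO and 198 ± 23.6 in WT. Rgs5 averaged 520 ± 77.1 in Cmg2-KO and 727 ± 192 in WT.

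**Figure D4:**
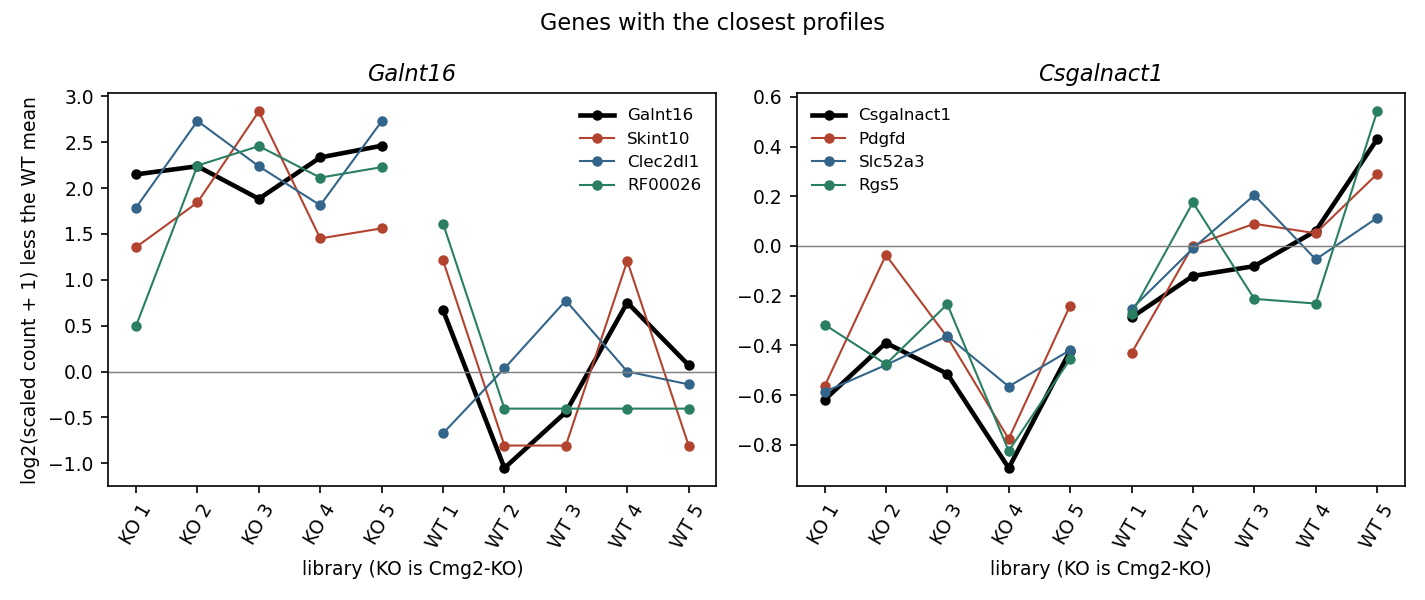
Log2(scaled count + 1) less the WT mean of each gene (vertical axis) in the 5 Cmg2-KO and 5 WT libraries (horizontal axis), for Galnt16 (left) and Csgalnact1 (right) in black with the 3 genes of closest profile in colour. The vertical scales differ: lines lie within 1 log2 unit of each other for Csgalnact1, while those for Galnt16 spread more widely within each genotype. Lines join libraries only to guide the eye, since replicates have no order.

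Markers of several lung cell types were also in this table, with higher or lower levels in Cmg2-KO. The genotypes overlapped at every marker. No marker passed limma's adjusted threshold or the same threshold on the adjusted p of the authors' deposited table. The part of these markers in the values of Galnt16 and Csgalnact1 was not tested. Beside the counts that follow, the table held 6.63% of all genes the authors adjusted over, and 631 of the 1308 fitted genes were higher and 677 lower in Cmg2-KO. Of 12 smooth muscle markers, 9 were in the table, all lower in Cmg2-KO, and they summed to 25352 to 37719 scaled counts in Cmg2-KO and 30622 to 50316 in WT. Of 10 mesothelial markers, 6 were in the table, all higher, summing to 3777 to 6966 in Cmg2-KO and 3166 to 5676 in WT. Of 11 secretory airway markers 4 were in the table, all lower, summing to 84396 to 176966 in Cmg2-KO and 144340 to 196851 in WT, nearly all of it Scgb1a1. The fibroblast list had 2 of 10 genes, both lower, summing to 1509 to 2669 in Cmg2-KO and 1957 to 5256 in WT. B and plasma cell markers had 3 of 9, all higher, at 7419 to 11126 in Cmg2-KO and 5306 to 8782 in WT. The alveolar type 2 list had 2 of 9, both lower, at 44176 to 51235 in Cmg2-KO and 47793 to 68170 in WT. The endothelial list had 1 of 10, lower, at 4803 to 5816 in Cmg2-KO and 5507 to 7093 in WT, and the list of 8 macrophage and monocyte markers had 0. No marker in the table was at 0 in all libraries.

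The genes beside Galnt16 and Csgalnact1 were examined for differences over a longer stretch of chromosome. No other gene of the table lay within 1 Mb of Galnt16 or of B4galnt3. In RefSeq (GRCr8) the named genes next to Galnt16 are Exd2 on the one side and Erh, Slc39a9 and Plekhd1 on the other, and none of them was in the table. Within 1 Mb of Csgalnact1 the table held Sh2d4a, which begins 9156 bases beyond it on the opposite strand (chromosome 16, 23083954 to 23156962). Sh2d4a, an SH2 domain protein gene, had a mean difference of the opposite sign, at 2590.3 ± 233 scaled counts in Cmg2-KO and 2140 ± 332 in WT (SD, n = 5 each). Its genotypes overlapped, with Cmg2-KO 5 at 2295 below WT 1 at 2428. The kit named in the labels does not say that strand was kept, and by their coordinates these genes do not overlap.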

How the data were processed

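RNA from flash-frozen lung was extracted with Trizol and made into libraries with the NEBNext Ultra kit, per the labels' protocols. The submitters' processing notes name HISAT2 2.0.5, a read aligner, and featureCounts 1.5.0-p3, a read counter. The sources used here give neither the genome build and annotation nor the tool behind the scaling and the p-values.

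The deposited table gives a signal per gene and library, which the values show to be read counts divided by a size factor. Within 0.02 reads, every value was a whole multiple of 1 read, worth 0.869 to 1.11 scaled counts. The authors also deposited their group means, log2 fold changes, folds (ratios) and p-values with adjusted p-values. Benjamini-Hochberg adjustment over 19894 genes gives those adjusted values, apart from 6 genes listed at 1.

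Fold changes and SEs come from limma 3.58.1 (trend and robust) in R 4.3.3 on log2(scaled count + 1), Cmg2-KO over WT, for 1308 genes above 0.5 in at least 5 libraries. This scale understates the change of low genes. The fit was tested on simulated data. Alternatives covered pseudocount, filter, scaling, replicate block and each library left out. They also covered edgeR 4.0.16 and DESeq2 1.42.0 on whole reads of 9 libraries. WT 4 was left out of the read counts, though its values were also whole multiples of 1 read, worth 1.01 scaled counts. No 2 libraries of a genotype held nearly the same counts, with WT 4 left out of that comparison. Members, lists and the rule for named genes were chosen with earlier results of these data known. One gene was left out of the lists and is not reported here. Named were all members, list genes in the table, the 3 closest profiles, and table genes within 1 Mb.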

Additional observations from a re-analysis of the deposited data

How the results depend on the processing

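The log2 fold changes of Galnt16, Csgalnact1 and B4galnt3 kept their sign under every alternative run, and each moved by less than 1 SD between replicates. The alternatives that gave a value numbered 19 for Galnt16, 19 for Csgalnact1 and 18 for B4galnt3, which the filter on a mean of at least 10 removed. Among them, the filters and the replicate block could not change a fold change. The SD is a wide allowance for B4galnt3, whose value ran from -2.02 in DESeq2 to -0.78 with a pseudocount of 5. Leaving out each library gave 1.95 to 2.40 for Galnt16, -0.64 to -0.46 for Csgalnact1 and -1.80 to -1.14 for B4galnt3. On whole reads of 9 libraries, edgeR and DESeq2 gave 2.31 for Galnt16 and -0.57 for Csgalnact1, while for B4galnt3 they gave -1.96 and -2.02. Members with no overlap between genotypes numbered 2 after rescaling, the only alternative that could have lowered the count. A pseudocount keeps the order of the values, and leaving out a library cannot create overlap, so those runs do not test it. The filters, the replicate block and the count tests leave the values as they are. The count of genes past limma's adjusted threshold, 3 in the reported fit, was 1 to 6 with a library left out (1 without Cmg2-KO 1, 6 without Cmg2-KO 3 or without Cmg2-KO 4, and 5 without WT 3), 257 with adjustment over the tested genes alone, 1 in edgeR and 49 in DESeq2. With the replicate block it was 0. The block leaves the members' fold changes as they are by design, since each number has 1 library of each genotype. Same-numbered libraries correlated at -0.0156 to 0.0873 in their deviations from the genotype means, and 2 of 5 numbers matched best with their own. Correlations this weak, over 5 numbers, cannot show whether the shared numbers pair the libraries. The unknown total depth limits what B4galnt3 can show.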
